A study of Mus musculus with 3 samples.

Results

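Complex III of the respiratory chain and cytochrome c were examined for binding of ESRRA, the estrogen-related receptor alpha, in villus cells of the mouse duodenum. The 10 genes were Uqcrc1, Uqcrc2, Uqcrfs1, Cyc1, Uqcrb, Uqcrq, Uqcrh, Uqcr10, Uqcr11 and Cycs, chosen by their names out of 22225 protein-coding gene symbols. A peak was linked to one of them when its midpoint lay within 30 kb of an annotated transcript start site of the gene, the distance at which the study joined peaks to target genes, and genes with no such peak were kept. The study also required lower expression without ESRRA for its target genes, and that condition was not used here. By distance alone 7 of the 1639 ESRRA peaks belonged to the 10 genes. ESRRA ChIP-seq is the sequencing of chromatin pulled down with an antibody against ESRRA. It was carried out in 2 libraries of villus cells from wild-type C57BL/6 mice on regular chow, with 1 library of input chromatin, and no other genotype or treatment was included. The labels call the cells adult, and the age of the mice was not given in the sources used here. The measurement was 1 list of peaks called on the merged ChIP libraries, with a position and no height for each peak. It holds no expression, so that the labelled cell type was not checked against marker genes. No value below therefore has an error between animals, no test between groups could be made, and the read depth behind a peak is unknown.

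Complex III takes electrons from ubiquinol and passes them to cytochrome c, a small soluble haem protein that carries them on to cytochrome c oxidase, and it moves protons across the inner mitochondrial membrane as it does so. One of its subunits, cytochrome b, is encoded by the mitochondrial genome, and all the others are encoded in the nucleus. ESRRA is a nuclear receptor known for its part in the expression of mitochondrial genes in tissues with a high energy demand, and absorptive cells of the villus are rich in mitochondria. It binds a half-site whose extended form is TCAAGGTCA and whose core is AAGGTCA.

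The DNA below is shown because it carries the core of that half-site in 5 of the bound genes and, in the other 2, a sequence described further on. All of it was read from the mouse genome mm9, and each line runs 5′ to 3′ on the strand that carries the marked sequence. Capitals mark AAGGTCA with the 2 bases before it, or, in Uqcrb, AGGTCA with the 3 bases before it. Uqcrfs1 had no AGGTCA, so that its capitals mark a cyclic AMP response element (CRE), TGACGTCA, a sequence known to be bound by CREB and ATF factors. Lines of 30 bases were kept short because they lie in or next to untranslated exons. The first 4 lines come from chr9:108838848-108838996 (plus strand), chr7:127779018-127779166 (plus), chr15:76174386-76174534 (minus) and chr11:4604062-4604210 (plus). The last 3 come from chr11:53243921-53243950 (minus), chr13:67006240-67006269 (minus) and chr13:30637197-30637226 (plus).
Uqcrc1: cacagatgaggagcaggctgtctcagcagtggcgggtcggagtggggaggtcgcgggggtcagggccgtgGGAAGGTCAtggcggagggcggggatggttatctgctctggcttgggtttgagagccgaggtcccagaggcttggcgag
Uqcrc2: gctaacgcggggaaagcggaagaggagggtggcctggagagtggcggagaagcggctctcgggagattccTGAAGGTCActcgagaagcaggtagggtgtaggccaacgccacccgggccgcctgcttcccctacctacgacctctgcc
Cyc1: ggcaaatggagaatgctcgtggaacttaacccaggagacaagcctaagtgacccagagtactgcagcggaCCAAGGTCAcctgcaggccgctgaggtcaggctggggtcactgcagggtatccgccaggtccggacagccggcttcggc
Uqcr10: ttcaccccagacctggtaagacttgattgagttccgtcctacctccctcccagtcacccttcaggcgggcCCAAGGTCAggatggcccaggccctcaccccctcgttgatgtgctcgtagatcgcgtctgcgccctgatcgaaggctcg
Uqcrq: aaatgactggcCTAAGGTCActtgggtgac
Uqcrb: agcgcttcactCTCAGGTCAaaatggcggg
Uqcrfs1: gcagggtttgTGACGTCAgcgcgacgccgg

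ESRRA peaks were found at 7 of the 10 genes, and each of the 7 lay at the promoter, with its midpoint within 1 kb of a start site. Among all protein-coding genes, 8.79% had a peak within 30 kb and 2.09% had one within 1 kb. Both core proteins and both nuclear-encoded redox subunits were bound, as were 3 of the 5 small subunits, whereas Cycs was not. Each bound gene had exactly 1 peak within 30 kb. The farthest of the linked peaks was 518 bp from a start site (Cyc1), and the nearest peak beyond the limit was 49.9 kb away (Uqcrh), so that no gene lay close to the limit on either side. For the whole list the share of 70% had a 95% Wilson interval of 39.7 to 89.2%. The interval covers counting error between genes only and treats them as a random draw, although they were chosen by name. The same holds for the intervals given below.

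**Figure D1:**
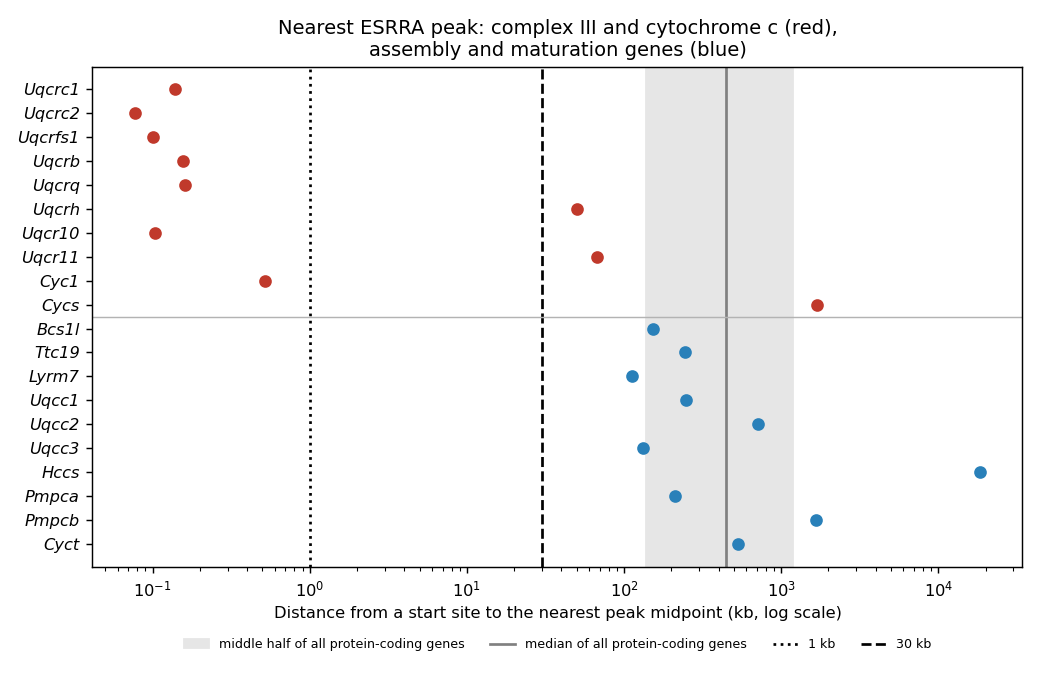
Distance from a start site to the nearest ESRRA peak midpoint, in kb on a log scale, for each of the 10 complex III and cytochrome c genes (red) and the 10 genes of the assembly and maturation list, Cyct among them (blue). Vertical lines mark 1 kb, 30 kb and the median of all protein-coding genes, 446.1 kb, and the grey band is the interquartile range of those genes. 7 red points lie left of 1 kb, and no blue point lies below 112 kb.

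The core proteins Uqcrc1 and Uqcrc2 are the large subunits that face the mitochondrial matrix and descend from processing peptidases. The Uqcrc1 peak (chr9:108838562-108839162) had its midpoint in an intron, 138 bp downstream of the nearest of 2 start sites. The gene is on the plus strand at chr9:108838661-108851685, and 502 of the 601 bases of the peak lay inside it. Its half-site, GGAAGGTCA, was also in an intron, at chr9:108838918-108838926, 61 bp from the midpoint as counted for the core. The peak held 2 places that match the NRF1-type sequence GCGCNTGCG, both in the untranslated part of an exon within 35 bp of the first start site, 1 of them on both strands. Nuclear respiratory factor 1, or NRF1, is a transcription factor known for binding promoters of respiratory chain genes. No other gene had a start site closer than 16769 bp (Col7a1) to the midpoint.

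The Uqcrc2 peak (chr7:127778652-127779252) had its midpoint 262 bp downstream of the first start site, and 563 of its bases lay inside the gene at chr7:127778690-127802992, on the plus strand. A later start site, that of a noncoding transcript, was 77 bp downstream of the midpoint. The half-site TGAAGGTCA lay at chr7:127779088-127779096 in an exon of a noncoding transcript, 141 bp from the midpoint. It was the only half-site inside these 7 peaks that began with T, which makes it the form TNAAGGTCA. Uqcrc2 had the peak to itself, since no other gene had a start site within 30 kb of it.

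Uqcrfs1 encodes the Rieske iron-sulfur protein, which receives an electron from ubiquinol, and Cyc1 encodes cytochrome c1, the haem subunit that hands the electron to cytochrome c. The 2 peaks differed in place and in sequence. The Uqcrfs1 peak (chr13:30636830-30637430) was centred 101 bp downstream of the only start site of the gene, which is on the minus strand at chr13:30632177-30637231, and 214 of its bases were coding. Its GC content, 67.6%, was the highest of the 7, and it held neither AAGGTCA nor AGGTCA. The CRE lay 20.5 bp downstream of the start site, in the untranslated part of an exon.

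The Cyc1 peak (chr15:76174171-76174771) was the only one that lay wholly inside its gene (chr15:76173953-76176364, plus strand), with 561 of its 601 bases in introns and a midpoint 518 bp downstream of the only start site. The half-site CCAAGGTCA was 12 bp from the midpoint, the smallest distance among the peaks that held the core. A second one, TGAAGGTCA, lay 219 bp downstream of the start site across the upstream edge of the peak, with its core at chr15:76174169-76174175, and was not counted as part of it. The peak was also within 30 kb of start sites of 7 other protein-coding genes, the most of any of the 7 peaks. The nearest of them was Sharpin, at 3643 bp, and Cyc1 was the gene with the nearest start site.

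**Figure D2:**
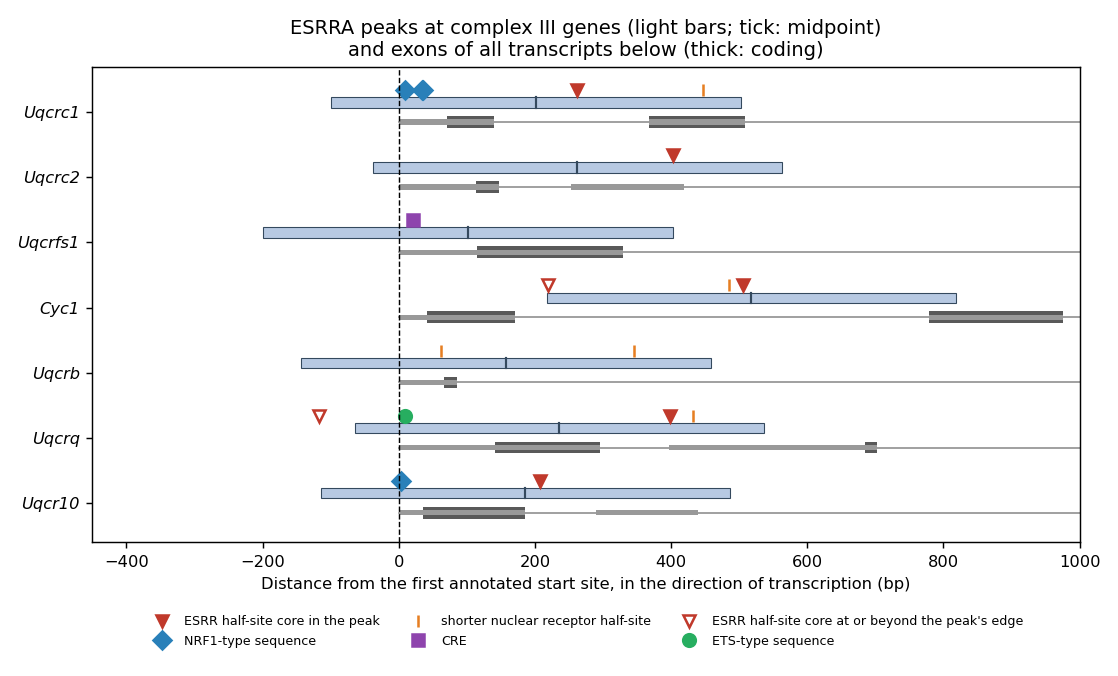
ESRRA peaks at the 7 bound complex III genes, aligned at the first annotated start site (dashed line) in the direction of transcription, in bp. Light bars are the peaks with a tick at the midpoint, grey boxes below are exons (dark and thick where coding), and symbols mark sequences found on either strand. The 7 midpoints lie 101 to 518 bp downstream of the line, and the half-site cores inside the peaks lie 208 to 506 bp downstream of it.

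Uqcrb, Uqcrq, Uqcr10, Uqcrh and Uqcr11 encode small subunits without redox groups that surround the catalytic core. The first 3 of these had a peak, and in each the promoter was shared with a gene read in the opposite direction. The Uqcrb gene is on the minus strand at chr13:67001553-67006314, and 458 bases of its peak lay inside it. The peak (chr13:67005857-67006457) had its midpoint in an intron 157 bp downstream of the first start site, and the start site of the predicted gene Gm10767 was 37 bp away from that of Uqcrb. It held no AAGGTCA and 2 copies of the shorter AGGTCA, at 61.5 and 345.5 bp downstream of the first start site. AGGTCA is a half-site for many nuclear receptors.

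The Uqcrq gene is on the minus strand at chr11:53241424-53244333. Its peak (chr11:53243797-53244397), with 537 bases inside the gene, had its midpoint in a coding exon, 236 bp downstream of the first start site and 161 bp upstream of a later one. Its half-site, CTAAGGTCA, was in an untranslated exon 163 bp from the midpoint, the largest distance of the 5 peaks with the core. Another, CGAAGGTCA, lay 50 bases beyond the upstream edge of the peak at chr11:53244447-53244453, outside the gene. The start site of Gdf9, a growth factor gene of the oocyte, was 192 bp from that of Uqcrq and 428 bp from the midpoint.

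The Uqcr10 gene is on the minus strand at chr11:4601976-4604345, and 486 bases of its peak (chr11:4603860-4604460) lay inside it. The peak had the lowest GC content of the 7, 53.4%. Its midpoint was in a coding exon, 185 bp downstream of the first start site. A later start site, that of a noncoding transcript, was 104 bp downstream of the midpoint. The half-site CCAAGGTCA lay in an intron 23 bp from the midpoint. An NRF1-type sequence was centred 3 bp downstream of the first start site. The start site of Zmat5, a zinc finger gene, was 336 bp from that of Uqcr10.

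Bidirectional promoters of this kind were thus found at 3 of the 7 bound genes (42.9%). Such pairs were chosen for counting after the peaks had been seen, and no difference from other genes was tested. Of the 457 other protein-coding genes with a peak within 1 kb, 14.4% had an upstream start site of another gene on the opposite strand within 1 kb, and of all protein-coding genes 9.07%. The peak list does not tell to which gene of such a pair a peak belongs. In each of the 7 cases the complex III gene had the start site nearest to the midpoint, with 157 bp for Uqcrb against 194 bp for Gm10767 in the closest case.

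The midpoint lay downstream of the first start site in 7 of 7 genes, by 101 to 518 bp. Among the 457 other bound genes this held for 71.8%, with a median position 308 bp downstream. Measured from the nearest start site of any gene, 4 of the 7 midpoints were downstream, against 64.9% of the other promoter peaks, so that the count rests on which start site is used. All 7 stood alone, with 0 further peaks inside 30 kb, whereas 36.5% of the 482 other promoter peaks had such a neighbour. The closest neighbour was 53 kb from the Uqcrq peak, and the median gap to the next peak was 448 kb for the 7 and 118 kb for the other promoter peaks.

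All 7 peaks were in single-copy DNA, as were 462 of the 482 other promoter peaks and 1315 of all 1639 peaks. Their 24-base words occurred a median of 1 time in the genome in each peak, and at most 3 times for any word (Uqcrb). The share of words found once ranged from 92.9% (Uqcr10) to 100% (Uqcrc1, Uqcrc2, Uqcrfs1 and Cyc1). GC content ranged from 53.4 to 67.6% with a median of 63.2%, beside 56.2% for the other promoter peaks and 48.8% for all peaks. The ratio of observed to expected CpG had a median of 0.77 in the 7 peaks and 0.59 in the other promoter peaks.

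AAGGTCA was found in 5 of the 7 peaks (71.4%). The share was 49.8% in the other promoter peaks and 44.0% in all 1639 peaks. The extended form TCAAGGTCA was found in 0 of the 7, where 17.0% of the other promoter peaks held it, and TNAAGGTCA was found in 1 of 7, where 23.4% did. The forms of the half-site were CCAAGGTCA in 2 peaks (Cyc1 and Uqcr10) and GGAAGGTCA, TGAAGGTCA and CTAAGGTCA in 1 each. CCAAGGTCA was in 15.8% of the other promoter peaks, TGAAGGTCA in 4.77%, GGAAGGTCA in 2.28% and CTAAGGTCA in 0.622%. AAGGTCA was read in the direction of the gene in Uqcrc1, Uqcrc2 and Uqcrq and against it in Cyc1 and Uqcr10.

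Among the other sequences searched on both strands, GCGCNTGCG was in 2 of the 7 peaks (Uqcrc1 and Uqcr10) and in 9.75% of the other promoter peaks. The ETS-type sequence CCGGAAGT was in 1 (Uqcrq), against 6.02%. The CRE was in 1 (Uqcrfs1), against 2.28%, and the GC box GGGCGG in 3, against 50.8%. The ESRR half-site read backwards, ACTGGAACT, was in 0 of the 7 peaks and in 0.622% of the other promoter peaks. The letters AGGTCA are part of AAGGTCA, which is part of the 2 longer forms, so that these counts are not independent of one another. With 7 peaks, 1 peak moves a share by 14.3 percentage points.

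**Figure D3:**
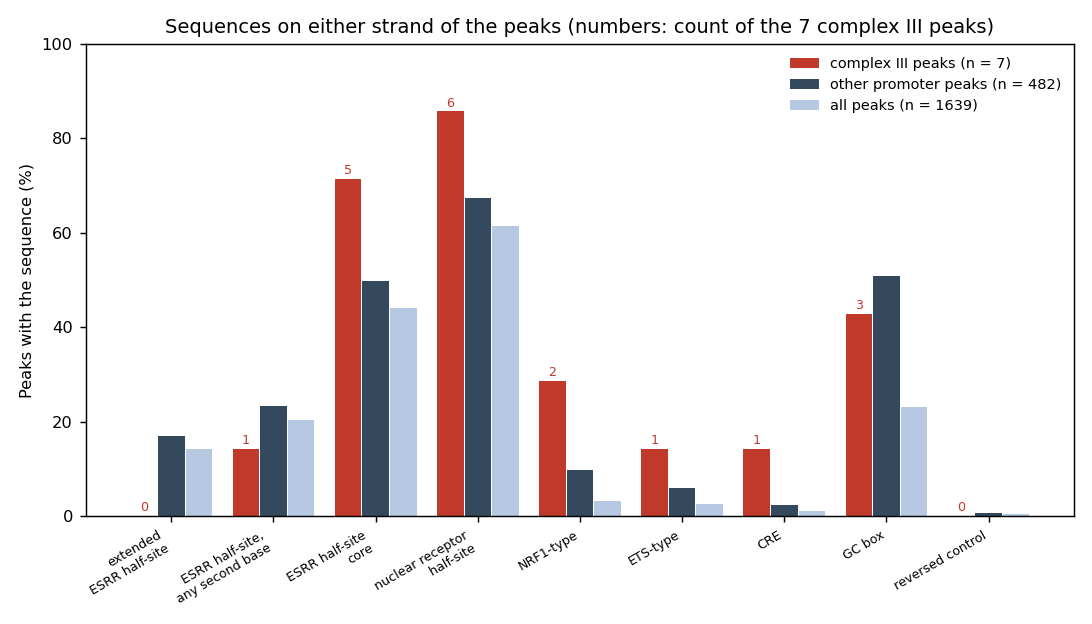
Share of peaks, in %, that hold each sequence on either strand, for the 7 complex III peaks (red, with counts above the bars), the 482 other promoter peaks (dark) and all 1639 peaks (light). The half-site core is in 5 of the 7 complex III peaks and the extended half-site in 0.

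The 3 genes with no peak within 30 kb were Uqcrh, the acidic hinge protein that helps cytochrome c dock on cytochrome c1, Uqcr11, a small subunit, and Cycs, which encodes cytochrome c itself. The nearest peak to Uqcrh (chr4:115739570-115747676) was 49.9 kb away and lay 2211 bp from a start site of Faah, an enzyme gene of fatty acid amide breakdown. That of Uqcr11 (chr10:79865742-79869575) was 67.7 kb away, 1053 bp from Adamtsl5. For Cycs (chr6:50512562-50516537) it was 1701 kb away. Of the 10 genes, Cycs alone had no peak within 100 kb, where 19.8% of all protein-coding genes had one.

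The letters of the half-site were present at some of these promoters too. In the window of 500 bases to each side of the first coding start site, AAGGTCA was found in 2 of the 3 unbound genes, in an intron of Uqcrh at position 297 after the start site and in Cycs at 426 bp before it, where it had the form TNAAGGTCA. Of all protein-coding promoters in such windows, 14.3% held AAGGTCA, and 5.83% of those with it had a peak within 1 kb. The bound complex III genes held it in 5 of 7 cases, and bound genes as a whole in 39.9%. The windows of the unbound genes were mostly unique sequence, with 95.3% (Uqcrh), 93.4% (Uqcr11) and 90.2% (Cycs) of their 24-base words found once in the genome.

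The 150 bases before the first coding start site of the unbound genes are given for comparison with the bound ones, from mm9 and in the direction of the gene. Capitals mark the ETS-type sequence on either strand in Uqcrh (chr4:115747677-115747826, minus strand) and Uqcr11 (chr10:79869576-79869725, minus), and the NRF1-type sequence in Cycs (chr6:50516538-50516687, minus). In the whole promoter windows of the unbound genes, CCGGAAGT was found in 2 (Uqcrh and Uqcr11), beside 7.04% of all promoter windows. GCGCNTGCG was also found in 2 (Uqcr11 and Cycs), beside 12.6%. The Uqcr11 copy was centred 8 bp downstream of the start site and so outside the stretch shown. The Cycs window also held a CRE, 196.5 bp upstream of the start site and so beyond the stretch shown, and 3.21% of all windows held one.
Uqcrh: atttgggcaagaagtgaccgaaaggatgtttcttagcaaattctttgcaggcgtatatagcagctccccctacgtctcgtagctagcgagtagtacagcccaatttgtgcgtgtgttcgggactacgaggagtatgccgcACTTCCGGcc
Uqcr11: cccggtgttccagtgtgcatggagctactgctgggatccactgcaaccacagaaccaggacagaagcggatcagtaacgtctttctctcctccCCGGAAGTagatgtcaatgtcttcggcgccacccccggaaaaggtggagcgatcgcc
Cycs: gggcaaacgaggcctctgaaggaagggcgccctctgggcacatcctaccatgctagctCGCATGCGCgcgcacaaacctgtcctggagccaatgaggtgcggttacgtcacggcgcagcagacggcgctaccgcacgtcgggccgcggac

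A list of genes for the assembly of complex III and the maturation of cytochrome c was counted in the same way. It also took in the matrix processing peptidase and Cyct, which is itself a cytochrome c and not an assembly or maturation factor. Of the 10 genes on that list, 0 had a peak within 30 kb or within 100 kb, beside 8.79 and 19.8% of all protein-coding genes. With only 10 genes, the 95% Wilson interval of the count was wide, 0 to 27.8%, and both of these shares lie in it. A difference from protein-coding genes as a whole was not tested. They comprised Bcs1l, which inserts the Rieske protein, Lyrm7, its chaperone, and Ttc19, which acts after that step. They also comprised Uqcc1, Uqcc2 and Uqcc3, factors for cytochrome b, and Hccs, the enzyme that attaches haem to cytochrome c and cytochrome c1. Pmpca and Pmpcb, the subunits of the matrix processing peptidase, and Cyct, the cytochrome c of the testis, completed the list. Their nearest peaks were 112 kb (Lyrm7) to 18458 kb (Hccs, on the X chromosome) away, with a median of 246.1 kb, beside 0.159 kb for the complex III and cytochrome c list and 446.1 kb for all protein-coding genes.

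The other complexes of oxidative phosphorylation were counted by the same rule. Within 30 kb of a start site, 16 of 36 complex I genes (44.4%), 2 of 4 complex II genes (50%), 10 of 11 complex IV genes (90.9%) and 12 of 15 ATP synthase genes (80%) had a peak. Together this was 40 of 66 genes, or 60.6% (95% Wilson interval 48.5 to 71.5%), beside 70% for complex III and cytochrome c. The intervals of the complexes overlapped that of complex III and cytochrome c, but lists of 4 to 36 genes give wide intervals. Their overlap therefore does not show that the lists are alike, and no difference between them was tested. As at complex III, most of these peaks were at promoters, with 37 of the 66 genes bound within 1 kb.

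**Figure D4:**
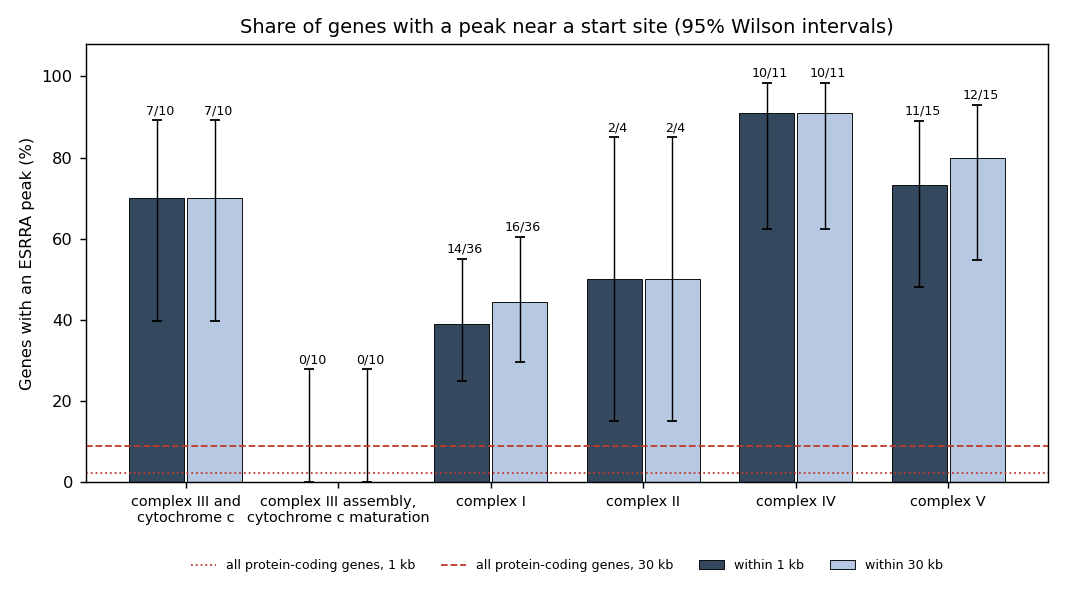
Share of genes, in %, with an ESRRA peak within 1 kb (dark) and 30 kb (light) of a start site, for complex III with cytochrome c, the assembly and maturation list, and the other respiratory complexes. Error bars are 95% Wilson intervals, numbers are counts of genes, and red lines give the shares of all protein-coding genes. Complex III with cytochrome c stands at 7 of 10 at both distances and the assembly and maturation list, Cyct included, at 0 of 10.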

How the data were processed

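ChIP-seq reads of 2 ESRRA libraries and 1 input library, grouped by title, were processed by the authors as follows: alignment to mm9 with Bowtie2 2.2.6, merging of the ChIP libraries with SAMtools 0.1.19, and peak calling with MACS2 at a p-value of 1e-05. How every peak came to be 601 bp wide was not given in the sources used here. The deposited list has 3 columns, a chromosome, a start and an end in base pairs, and no other unit. Pooling hides peaks of 1 library, and depth per library is unknown.

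Here, midpoints were compared with GENCODE M1 start sites on NCBIM37, the build of mm9 (Python 3.11.15, NumPy 2.4.6). Symbols were counted once. All 86 list genes matched, 3 by an older symbol in RefSeq. Sequences were matched exactly on both strands. Copy number was counted for 24-base words over the genome, and a peak with a median of at most 10 copies was called single-copy. All 10 genes and the assembly list were to be named. The gene lists and sequences were chosen with earlier results of these data known, and the promoter windows, start-site pairs and 9-base forms after the peaks had been seen. Functions were tested on simulated data. No test of a difference was made. Alternatives were other distances, start sites, peak sets and sequences. Expression was not analysed here.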

Additional observations from a re-analysis of the deposited data

How the results depend on the processing

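The number of complex III and cytochrome c genes with a peak was 7 at 30 kb and stayed within 7 to 9 in 6 alternatives. It was 8 within 50 kb (12.4% of all protein-coding genes) and 9 within 100 kb (19.8%). Uqcrh entered at 50 kb only through the start site of a transcript with a retained intron, at 49941 bp. Its nearest coding start site was 54894 bp from the peak midpoint. The number was 7 with single-copy peaks, with start sites of protein-coding transcripts and when each peak counted for the nearest gene only. In that last setting 4% of all protein-coding genes had a peak. Within 1 kb it was 7, and 6 within 0.5 kb, without Cyc1. The assembly and maturation list stayed at 0 in 6 alternatives, and the other complexes ranged from 36 to 43 of 66. The sequence counts moved more. AAGGTCA was in 5 of 7 whole peaks and in 3 of 7 when the search was kept to 100 bases on each side of the midpoint, without Uqcrc2 and Uqcrq, where 29.3% of all peaks held it. The count of 0 for TCAAGGTCA became 1 for TNAAGGTCA. Peaks per library were not analysed here, so that no library could be left out. No paired analysis was possible because the peaks came from reads of merged libraries. A stricter peak threshold could not be tried without a score for each peak.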

Other observations

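The promoters of the unbound genes on the assembly and maturation list were not without the sequences seen at the bound genes. Within 500 bases of the first coding start site, AAGGTCA was found in 2 of the 10, at 134 bp upstream of the start site in Uqcc3 and at 455 bp upstream in Hccs, and TCAAGGTCA in 0. The share of all protein-coding promoters with AAGGTCA was 14.3%. GCGCNTGCG was found in 3 of the 10 (Ttc19, Uqcc1 and Uqcc2) and CCGGAAGT in 3 (Bcs1l, Hccs and Pmpcb), beside 12.6 and 7.04% of all promoters. The share of 24-base words found once in the genome ranged, after rounding, from 90% (Uqcc2, 880 of 978) to 100% (Ttc19 and Lyrm7) in these windows.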
